A study of Mus musculus with 2 samples.

Results

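The cells described here were selected from single-cell RNA profiles of the mouse retina for RNA of blood leukocytes without RNA of microglia, the resident immune cells of the retina. A cell was selected if it held at least 500 unique molecular identifiers (UMIs, counted RNA molecules) and at least 3 UMIs of Ptprc, Coro1a, Cd52, S100a8 and S100a9 together, from at least 2 of these 5 genes. It also had to hold at most 2 UMIs of C1qa, C1qb, C1qc, P2ry12 and Tmem119 together. The rule selected 56 of 19558 cells, 3 of 7169 in the control library and 53 of 12389 in the streptozotocin (STZ) library. The label of blood leukocytes fits the other genes of 11 of these cells. The other 45, all in the STZ library, held S100a8 and S100a9 beside RNA of rods, cones, bipolar cells, glia and vessels. They held few or no UMIs of other leukocyte genes, but at a higher level than like cells that were not selected. They are called mixed-RNA cells here.

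The study compared retinas of diabetic and healthy male C57BL/6 mice (C57BL/6J in the treatment protocol). STZ, a toxin of the insulin-producing cells of the pancreas, was injected intraperitoneally at 55 mg/kg when the mice were 3 to 5 weeks old, and diabetes was called above 300 mg/dL blood glucose. Their retinas were taken after 25 weeks of high glucose, while the control mice were untreated and their age is not given in the sources used here. Each group is 1 droplet-based 3′ library made from 3 pooled retinas, so there are no replicates and no test was made, and every interval is a 95% interval that covers counting error only.

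Leukocytes leave the blood by binding to the vessel wall, and in diabetes they are known to adhere to retinal capillaries. Neutrophils are short-lived phagocytes whose cytoplasm is rich in the calcium-binding proteins S100A8 and S100A9, which pair to form calprotectin, while monocytes make less of them and resting microglia make little. Ptprc encodes CD45, the phosphatase found on all nucleated blood cells, Coro1a an actin regulator of leukocytes, and Cd52 a small surface glycoprotein of lymphocytes and myeloid cells. Whether the cells lay inside vessels or in the tissue cannot be read from their RNA, and perfusion of the animals is not given in the sources used here.

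S100a8 and S100a9 carry most of what follows, so the sequence before each gene is shown, from RefSeq on build GRCm38.p6. S100a8 lies at chr3:90668978-90670035 on the plus strand and S100a9 at chr3:90692632-90695721 on the minus strand (GENCODE M21), 22596 bases apart. The S100a9 run covers the 250 bases before the gene (chr3:90695722-90695971, minus strand). The S100a8 run covers 157 bases (chr3:90668821-90668977, plus strand), since it stops at the first base of the GENCODE gene. Capitals mark matches on either strand to GAGGAA, the core bound by PU.1, or TTGCNNAA, a form of the C/EBP motif, both factors of myeloid cells.
S100a8: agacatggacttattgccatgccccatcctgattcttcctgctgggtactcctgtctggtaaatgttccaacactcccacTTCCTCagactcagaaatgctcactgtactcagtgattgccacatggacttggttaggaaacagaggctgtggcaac
S100a9: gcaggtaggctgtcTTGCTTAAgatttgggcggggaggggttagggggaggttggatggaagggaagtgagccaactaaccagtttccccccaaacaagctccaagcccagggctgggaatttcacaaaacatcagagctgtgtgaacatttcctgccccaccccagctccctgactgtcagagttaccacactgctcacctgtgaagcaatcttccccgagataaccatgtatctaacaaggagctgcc
The S100a8 run held 1 GAGGAA match and 0 TTGCNNAA matches, and 15.3% and 6.47% of all 32851 RefSeq promoters held them in a window of the same place and length. The S100a9 run held 0 GAGGAA matches and 1 TTGCNNAA match, against 23.3% and 9.56% of promoters. A match is a description of the letters and not evidence of binding. RNA of Spi1, which encodes PU.1, was present in 5 of 5 neutrophil-like cells (5, 1, 4, 2 and 2 UMIs) and in 6 of the 45 mixed-RNA cells.

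The selected cells made up 0.0418% (Clopper-Pearson interval 0.00863 to 0.122) of the control library and 0.428% (0.321 to 0.559) of the STZ library, a ratio of 10.2 (3.31 to 51.2). Without the 45 mixed-RNA cells the STZ share was 0.0646% (0.0279 to 0.127), from 8 cells, and the ratio was 1.54 (0.370 to 9.03). The larger share in the STZ library was therefore carried by the mixed-RNA cells, and over the other 11 cells the libraries were not distinguishable at this depth. The rule used the leukocyte genes themselves, so these shares describe the selection.

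**Figure D1:**
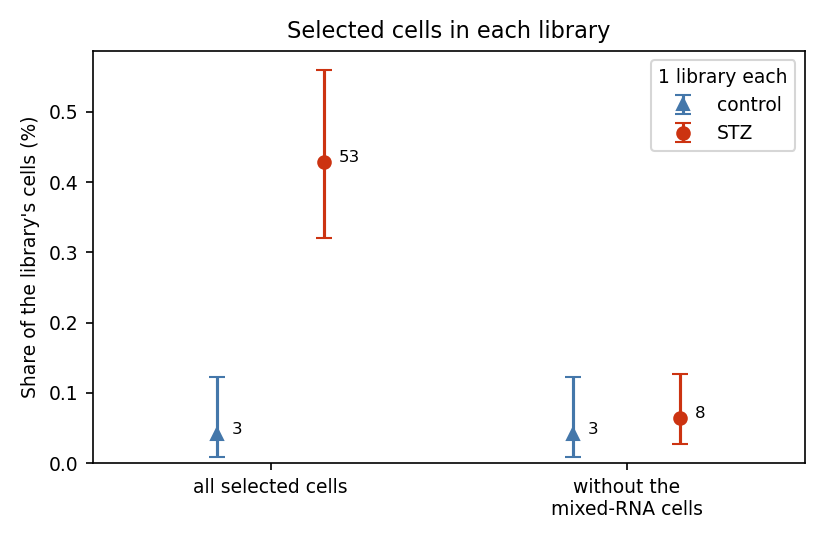
Share of each library's cells (y axis, %) that met the selection rule, for all selected cells and without the mixed-RNA cells; points are 1 library each, bars are 95% Clopper-Pearson intervals, and the number of cells is printed beside each point. The STZ share fell from 0.428% to 0.0646% without the mixed-RNA cells, and its interval then overlapped that of the control library.

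Cells were sorted into kinds by at least 2 UMIs from at least 2 marker genes outside the selection genes. Neutrophil markers were met by 12 cells, all STZ, of which 5 were outside the mixed-RNA cells. T or NK cell markers were met by 3 control cells and 1 STZ cell, B or plasma cell markers by 1 STZ cell, monocyte markers by 1 STZ cell and dendritic cell markers by 1 mixed-RNA cell. No cell met the markers of macrophages, mast cells, basophils or eosinophils, platelets, or gamma delta T or innate lymphoid cells. The remaining 37 cells met none, and all 37 were mixed-RNA cells. The deposited table limits these calls, since 5 of the 19 listed T cell markers, 2 of the 15 B cell markers, 2 of the 13 NK cell markers and 4 of the 14 monocyte markers are in it, against 13 of the 15 neutrophil markers. Genes such as Cd3e, Cd79a, Ncr1, Ly6c2 and Ccr2 were not analysed here.

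At the edges of the rule, 1 selected cell held 3 UMIs of the selection genes and 3 held 4. Just outside it, 6 STZ cells held 2 UMIs from 2 of the genes, and 1 STZ cell held at least 3 UMIs from only 1 gene. Another 48 cells, 16 control and 32 STZ, met the leukocyte part of the rule but held more than 2 microglial UMIs, from 13 to 241 in control and from 5 to 345 in STZ. All 56 selected cells held 0 UMIs of the 5 microglial genes. No selected cell thus stood near that limit.

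**Figure D2:**
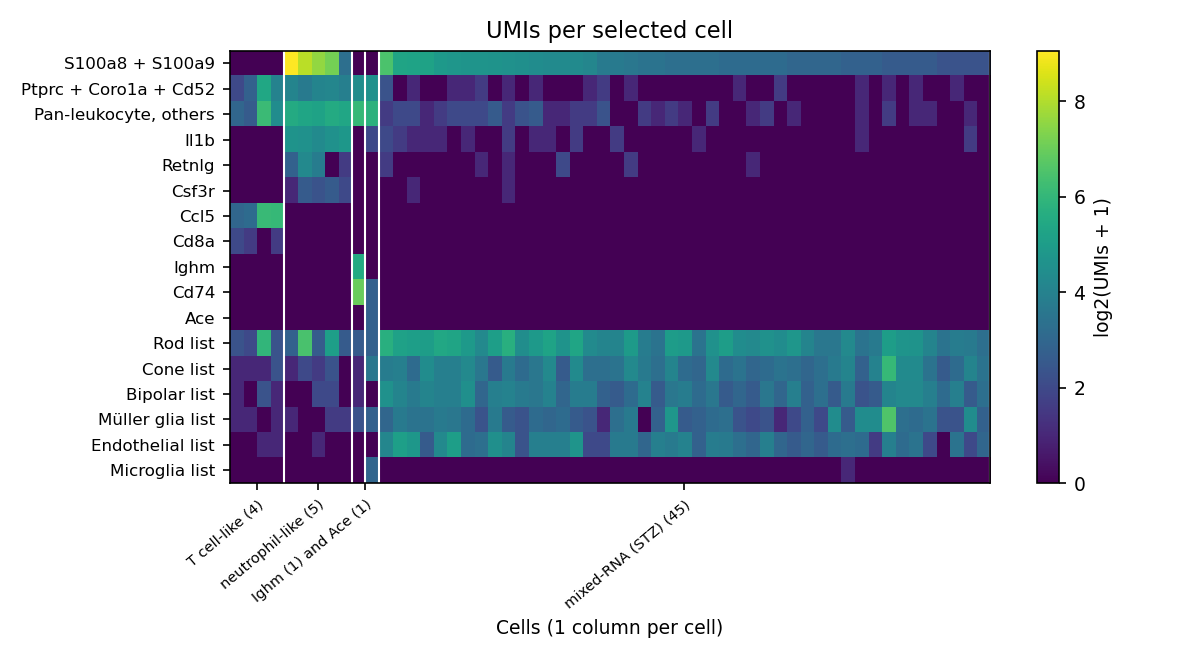
UMIs per cell on a log2(UMIs + 1) colour scale for gene sums, single genes and marker lists (rows) in the 56 selected cells (columns), grouped as in the text and ordered by S100a8 plus S100a9 within a group. The 45 mixed-RNA cells show rod, cone and bipolar RNA in every column and scattered leukocyte genes, while the 11 other cells show more leukocyte RNA and little RNA of these lists, apart from 33 to 88 rod UMIs in 3 of them.

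The T cell-like cells were the only selected cells of the control library, with 3 cells there and 1 in the STZ library. All 4 expressed Ccl5, the chemokine RANTES of memory and cytotoxic lymphocytes, with 7 UMIs in the STZ cell and 8, 69 and 66 in the control cells. Ccl5 was at 0 UMIs in the other 52 selected cells. Cd8a, the co-receptor of cytotoxic T cells, had 3 UMIs in the STZ cell and 2, 0 and 2 in the control cells. Trac, the constant part of the T cell receptor alpha chain, had 0 UMIs in the STZ cell and 2, 1 and 1 in the control cells, and Lck, its proximal kinase, had 1 UMI in the STZ cell and 0, 1 and 1. These counts are small, but no other selected cell held a UMI of Cd8a, Trac or Lck.

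Further genes of activated lymphocytes were shared by the T cell-like cells. Ctsw, the cathepsin of cytotoxic lymphocytes, had 1 UMI in the STZ cell and 1, 2 and 1 in the control cells. Cxcr6, a chemokine receptor of tissue-homing T cells, had 4 UMIs in the STZ cell and 2, 0 and 4 in the control cells. The activating receptor Klrk1, found on NK and CD8 T cells, had 0 UMIs in the STZ cell and 1, 3 and 3 in the control cells. AW112010, a long RNA of activated leukocytes, had 5 UMIs in the STZ cell and 4, 21 and 8 in the control cells. S100a8 and S100a9 were at 0 in all 4.

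The control cell with the most RNA, 5533 UMIs, differed from the other T cell-like cells. It held 17 UMIs of Fcer1g and 18 of Tyrobp, the adaptors through which NK and myeloid receptors signal, which were at 0 in the other 3. It also held 9 UMIs of the chemokine Ccl4, 3 of Stat4, 1 of Trac and 0 of Cd8a, so that the listed markers do not settle between a T and an NK cell. Its rod markers reached 61 UMIs, against 3 to 4 in the other 3 cells.

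Antigen presentation by MHC class I stood high in the T cell-like cells, where all 11 genes of the list were detected at 12658 CPM together (CPM, UMIs of the list scaled by all UMIs of the cells; Poisson interval 10641 to 14946). The list was at 3764 CPM in the neutrophil-like cells, 700.2 in the mixed-RNA cells, 337.2 in the remaining control cells and 395.5 in the remaining STZ cells. H2-K1, a heavy chain, had 7 UMIs in the STZ cell and 9, 14 and 12 in the control cells, and the shared light chain B2m had 3 and 3, 20 and 9. H2-Q7 had 2 UMIs in the STZ cell and 5, 2 and 7 in the control cells. H2 genes are near-identical copies, and their split depends on the authors' counting. The T cell-like share was 0.0418% (0.00863 to 0.122) in control and 0.00807% (0.000204 to 0.0450) in STZ, and the log2 ratio of -2.37 had an interval from -8.09 to 1.26.

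Neutrophil-like cells were found only among the STZ cells, with 5 cells or 0.0404% (0.0131 to 0.0942) of the library. The control library held 0 of 7169, which allows a share of up to 0.0418% at 3 counts (Clopper-Pearson upper limit 0.0514%), so a difference in neutrophil-like cells between the libraries was not detectable at this depth. Together they held UMIs of all 11 neutrophil markers in the table that the selection did not use. Their S100a8 and S100a9 UMIs were 533, 280, 193, 141 and 9, or 22.9%, 10.2%, 11.4%, 5.71% and 0.414% of all UMIs of the cell. The first 4 of these cells were thus high and the last was far lower, within the range of the mixed-RNA cells. That last cell nevertheless held 40 UMIs of pan-leukocyte genes outside the selection genes (36 to 45 over the 5 cells).

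Il1b, the inflammatory cytokine interleukin 1 beta, varied far less between the neutrophil-like cells than the S100 genes did. In the same order of cells it had 24, 23, 19, 23 and 27 UMIs. The receptors for the factors that produce and recruit neutrophils were low but present in each, with 1, 5, 4, 5 and 3 UMIs of Csf3r and 1, 2, 5, 1 and 1 of Cxcr2. Retnlg, a secreted resistin-like protein of mature neutrophils, had 6, 18, 13, 0 and 2 UMIs. The gelatinase Mmp9 had 4, 1, 4, 2 and 2 UMIs, and the protease inhibitor Slpi had 2, 11, 2, 1 and 3. Csf3r, Cxcr2, Mmp9 and Slpi were thus found in all 5 cells and Retnlg in 4.

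The neutrophil-like cell with 9 S100a8 and S100a9 UMIs held the most G0s2, a lipolysis inhibitor, with 22 UMIs against 7, 2, 0 and 1 in the other 4. It also held the most Cxcr4, the receptor for bone marrow return of aged neutrophils, with 6 UMIs against 2, 1, 3 and 2. Its mitochondrial share was 16.0%, against 2.06%, 6.24%, 2.06% and 14.8% in the others, and its rod markers were at 5 UMIs. The chemokine Cxcl2 had 21, 0, 9, 0 and 4 UMIs over the 5 cells, and Hdc, which makes histamine, had 1, 0, 0, 9 and 3. Lcn2, a granule protein, had 0, 4, 0, 1 and 1 UMIs, and the granule genes Mpo, Camp and Ngp of neutrophil precursors were not analysed here.

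By function, inflammatory and interferon-induced genes were prominent in the neutrophil-like cells. The inflammatory cytokine and chemokine list was at 19872 CPM (17371 to 22632) with 9 of 16 genes detected, led by Il1b (116 UMIs), Cxcl2 (34), the NF-kappa-B inhibitor Nfkbia (26) and Ccl6 (25), and at 15208 CPM (12989 to 17698) in the T cell-like cells, where Ccl5 made up 150 of its 167 UMIs. The interferon list was at 18472 CPM (16063 to 21139) with 8 of 16 genes detected. Most of it was Ifitm1 (128 UMIs) and Ifitm2 (65), membrane proteins that restrict viral entry, while Rsad2 had 1 UMI. The pan-leukocyte list outside the selection genes was at 17946 CPM (15574 to 20578), with Tyrobp at 64 UMIs and Fcer1g at 28. In the remaining STZ cells these 3 lists were at 224.4, 352.9 and 136.4 CPM. The list of adhesion and migration genes was at 5953 CPM, with Cxcr4 (14 UMIs), the hyaluronan receptor Cd44 (12), the selectin ligand Selplg (12) and Cxcr2 (10) as its leading genes. Oxidase and granule genes were at 5253 CPM, with Mmp9 (13 UMIs) and Rac2 (11) as leading genes, and MHC class II was at 0 UMIs.

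Both remaining cells outside the mixed-RNA group were single STZ cells, and neither held 3 markers of a single list, so both are left unnamed. The first held 1 plasma cell marker and 2 B cell markers, the only 2 of the B cell list in the deposited table, so 3 could not be reached. The second held 2 of the 4 monocyte markers in it. The T cell-like cells were named as a group, with 4 T cell markers detected over its 4 cells together. The first held 9980 UMIs, among them 45 of Ighm, the heavy chain of IgM, 5 of Cd79b, a signalling chain of the B cell receptor, and 2 of Mzb1, a chaperone of antibody-making cells. These 3 genes were at 0 in the other 55 selected cells. Its MHC class II genes reached 21844 CPM (19040 to 24944), with 127 UMIs of the invariant chain Cd74, 57 of H2-Eb1 and 27 of H2-Ab1. Its rod, cone, bipolar, glial and endothelial marker UMIs were 5, 1, 1, 4 and 0.

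The second single cell held 4647 UMIs, with 6 of Ace and 1 of Ms4a6c from the monocyte list, and no other selected cell held Ace. It also held 12 UMIs of Cybb, the catalytic subunit of the phagocyte oxidase, 11 of the lysozyme Lyz2, 4 of the integrin Itgam, 25 of the transcription factor Cebpb and 12 of Nr4a1, a nuclear receptor of patrolling monocytes. The fractalkine receptor Cx3cr1, shared by monocytes and microglia, was at 7 UMIs, with the other 10 microglial list genes at 0.

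The mixed-RNA cells were defined after their values had been seen, as selected cells with at least 3 UMIs from each of 4 or 5 of the rod, cone, bipolar, Müller glia and endothelial marker lists. Of the 45, 40 met all 5 lists, with rod, cone and bipolar RNA in all 45, Müller glia RNA in 42 and endothelial RNA in 43. Just outside this limit stood 2 STZ cells with 3 lists, the Ace cell and a neutrophil-like cell, and 5 mixed-RNA cells stood just inside with 4. The mixed-RNA cells held a median of 2038 UMIs (1095 to 6293) and a mitochondrial share of 15.3% (7.34 to 29.3), and 8 of them were above 20% mitochondrial UMIs. The other 11 selected cells were all below 20%.

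Pan-leukocyte genes set the groups apart. The 20 genes of that list outside the selection genes gave 0 to 5 UMIs in a mixed-RNA cell, with a median of 1 and 0 UMIs in 15 cells. In the other 11 selected cells they gave 5 to 71 UMIs, so the groups met only at 5. Summed over cells, the list was at 613.8 CPM (472.7 to 783.9) in the mixed-RNA cells, with UMIs in 30 of 45. It was at 43.4 CPM in the STZ cells with all 5 classes that were not selected, with UMIs in 31 of 235. In all remaining STZ cells it was at 136.4 CPM. The rule picked cells with leukocyte RNA, so this gap follows in part from it. All 45 mixed-RNA cells held both S100a8 and S100a9, from 4 to 89 UMIs together with a median of 9. By contrast, Ptprc was found in 4, Coro1a in 3 and Cd52 in 11 of them, and 29 held none of these 3 genes and were selected by S100a8 and S100a9 alone. The other cells' RNA was at 2.32% to 3.91% of UMIs over the retinal and vascular marker lists, against 0.110% to 3.37% in the other 11.

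**Figure D3:**
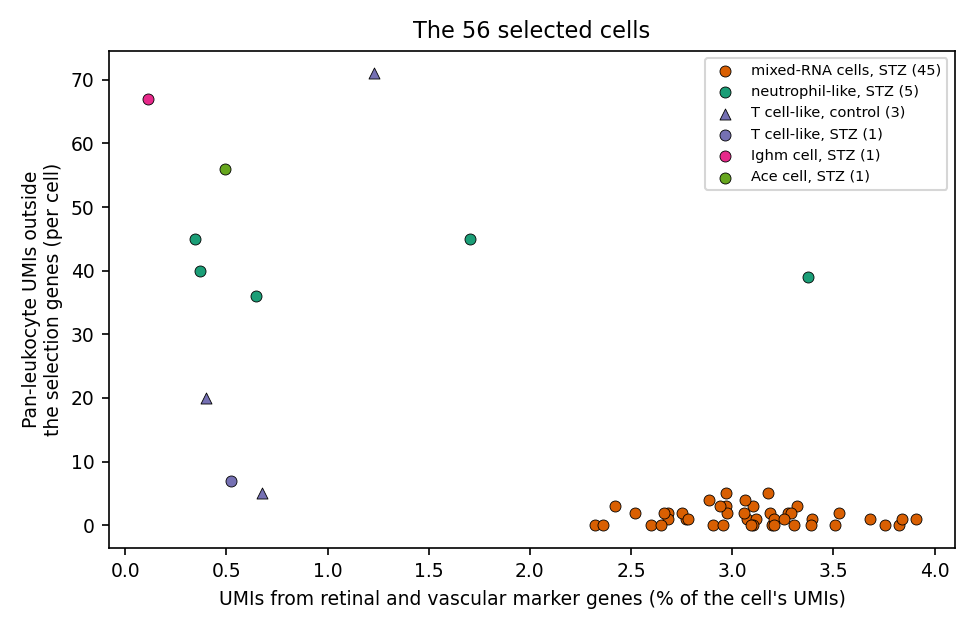
The 56 selected cells by the share of UMIs from retinal and vascular marker genes (x axis, %) and the UMIs of pan-leukocyte genes outside the selection genes (y axis, UMIs per cell), coloured by group with control cells as triangles and STZ cells as circles. The mixed-RNA cells lie at 0 to 5 pan-leukocyte UMIs and 2.32% to 3.91%, and the others at 5 to 71.

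Against all remaining cells, endothelial RNA stood furthest above and rod RNA less so, while cone, bipolar and Müller glia RNA stood below. The endothelial list was also 1 of those that defined the mixed-RNA cells, so a raised level follows in part from the definition. The endothelial list gave 4844 CPM (4430 to 5285) in the mixed-RNA cells with all 10 genes detected, against 657.6 in the remaining STZ cells and 641.2 in the remaining control cells, and 87.5 in the neutrophil-like cells. Cldn5, the tight junction protein of vessels, had 118 UMIs in 36 of the 45 cells, the VEGF receptor Flt1 109 UMIs in 42 cells and Ly6c1 90 UMIs in 35 cells, as measures of vascular RNA. Rod RNA, at 10234 CPM, differed less from the 8348 CPM of the remaining STZ cells. The cone, bipolar and Müller glia lists were at 5534, 4776 and 4335 CPM, below the 7498, 7075 and 8408 of those cells. The median share of all retinal and vascular markers was 3.09% of UMIs in the mixed-RNA cells and 3.28% in the remaining STZ cells. In STZ cells with all 5 classes that were not selected, the endothelial list was at 2530 CPM and the rod list at 4037. The cone and bipolar lists were at 2052 and 1762 CPM there, against 5534 and 4776 in the mixed-RNA cells. Müller glia RNA went the other way, with 34430 CPM there against 4335. The median shares of rod, cone, bipolar, Müller glia and endothelial markers were 1.03%, 0.556%, 0.472%, 0.310% and 0.472% of UMIs. No 1 class therefore dominated, and red cell RNA was at 1 UMI in all 45 together and platelet RNA at 0.

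S100a8 and S100a9 were at 0 UMIs among 27279124 in the control library and at 1869 in the STZ library. That is 56.3 CPM in STZ against a limit of 0.110 CPM for 3 UMIs in control, at least 512-fold lower in control. Of the 1869 UMIs, 61.9% were in the 5 neutrophil-like cells, 36.4% in the 45 mixed-RNA cells and 1.71% elsewhere. Per cell the signal had a gap. In all 75 STZ cells with either gene, 18 held 1 UMI, 7 held 2, none held 3 and 50 held 4 or more, and those 50 were the neutrophil-like and mixed-RNA cells. The level was 101199 CPM in neutrophil-like cells, 6532 in mixed-RNA cells and 0.968 in the remaining STZ cells. Both are selection genes, so the low level elsewhere, and that all 50 were selected cells, follow largely from the rule. In 103 STZ cells rich in endothelial RNA (at least 1.5% of UMIs, median 2630 UMIs), where these genes should be absent, 0 cells held a UMI (upper limit 3.52%), beside a median of 2038 UMIs in the mixed-RNA cells. Those 103 cells held 330316 UMIs in all, too few to show a level as low as 0.968 CPM.

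In the STZ library, S100a8 and S100a9 were found mostly in cells with RNA of all 5 retinal and vascular classes, with no rise from 1 to 3 classes. Either gene was found in 0 of 32 cells with no class, 3 of 1267 with 1 class (0.237%), 8 of 3943 with 2 (0.203%), 9 of 4468 with 3 (0.201%) and 12 of 2404 with 4 (0.499%, 0.258 to 0.870). Among cells with all 5 classes it was 43 of 275 (15.6%, 11.6 to 20.5). Of those 43 cells, 40 were mixed-RNA cells, which were defined by their classes after their values had been seen. A class needs 3 UMIs, so the number of classes also depends on depth. Median UMIs were 1084, 2065, 2818, 2050 and 3655 in STZ cells with 1, 2, 3, 4 and 5 classes. In control it was 0 of 90 cells with all 5 classes (upper limit 4.02%). The STZ cells with all 5 classes that were not selected numbered 235, held a median of 4924 UMIs and had 6 S100a8 and S100a9 UMIs in all. Most STZ cells with RNA of all 5 classes thus held neither gene. The 235 were not equally mixed, with medians of 132 Müller glia UMIs and 9 rod UMIs, against 7 and 23 in the mixed-RNA cells. Not being selected also limited their S100a8 and S100a9 UMIs. The part of several cells in 1 droplet, or of free RNA, in the mixed-RNA cells was not tested.

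**Figure D4:**
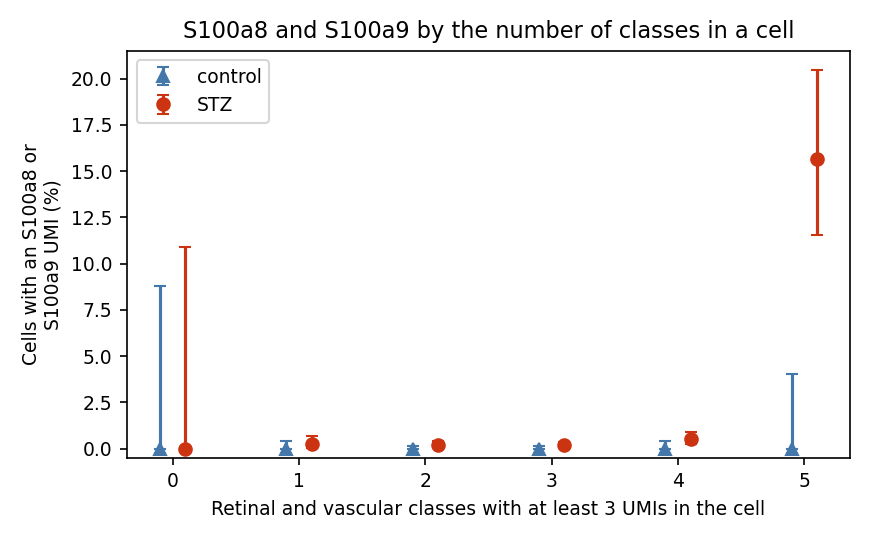
Share of cells with an S100a8 or S100a9 UMI (y axis, %) by the number of retinal and vascular classes with at least 3 UMIs in the cell (x axis) in the control (triangles) and STZ (circles) library; bars are 95% Clopper-Pearson intervals. STZ cells with all 5 classes stand at 15.6%, and those with 1 to 4 classes at 0.201% to 0.499%. Of the 43 cells behind the 15.6%, 40 were mixed-RNA cells.

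The neutrophil genes of the mixed-RNA cells were compared with those of the neutrophil-like cells per 100 UMIs of S100a8 and S100a9. Summed over cells, S100a9 made up 57.5% (54.6 to 60.4) of the pair in neutrophil-like cells and 57.6% (53.8 to 61.3) in mixed-RNA cells. Single neutrophil-like cells varied, with 295, 195, 87, 84 and 4 S100a9 UMIs beside 238, 85, 106, 57 and 5 of S100a8. The near-equal sums therefore do not show the same proportion in each cell. Several genes also stood close. Ifitm1 gave 11.1 UMIs per 100 in neutrophil-like and 11.9 in mixed-RNA cells. Wfdc17, a small secreted protein of activated phagocytes, gave 6.66 and 7.93. Srgn, the granule proteoglycan serglycin, gave 5.45 and 5.29, and Cxcl2 gave 2.94 and 2.20. For each of these 4 genes the intervals overlapped.

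Il1b, G0s2 and the summed markers were scarcer in the mixed-RNA cells for their S100a8 and S100a9. S100a8 and S100a9 are selection genes, and 29 of the 45 mixed-RNA cells were selected by them alone. The lower ratios may thus follow in part from the rule. Il1b gave 10.03 per 100 (8.29 to 12.04) in neutrophil-like cells and 3.08 (1.91 to 4.71) in mixed-RNA cells. G0s2 gave 2.77 (1.89 to 3.91) and 0 (upper limit 0.542), and the 11 neutrophil markers outside the selection genes gave 15.2 (13.1 to 17.7) and 5.58 (3.95 to 7.66) together. Not every marker went this way, since Stfa2l1 gave 0.692 (0.299 to 1.36) and 1.47 (0.704 to 2.70) and Lcn2 gave 0.519 (0.191 to 1.13) and 0.881 (0.323 to 1.92), with overlapping intervals. Lcn2 was also at 53.5 CPM in the STZ cells with all 5 classes that were not selected, where Stfa2l1 and Wfdc17 were each at 1.01. Il1b, Retnlg, Csf3r, Cxcr2, Slpi, Wfdc21, Cxcl2, Hp and Ccl6 were at 0 there. The 11 neutrophil markers outside the selection genes were at 42.4 CPM together there, mostly G0s2 (20.2) and Mxd1 (17.2). Lcn2 therefore does not mark neutrophil RNA alone here. Pan-leukocyte genes gave 17.7 (15.4 to 20.3) and 9.40 (7.24 to 12). These ratios rest on 5 cells on the neutrophil-like side, and the Il1b ratio ran there from 4.50 in the cell with the most S100a8 and S100a9 to 300 in that with the fewest. Without that last cell, which held 22 of the 32 G0s2 UMIs, Il1b gave 7.76 and G0s2 0.872. The lowest single cell thus stood near the mixed-RNA value, and UMIs of a gene in 1 cell are not independent, so the intervals are too narrow.

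**Figure D5:**
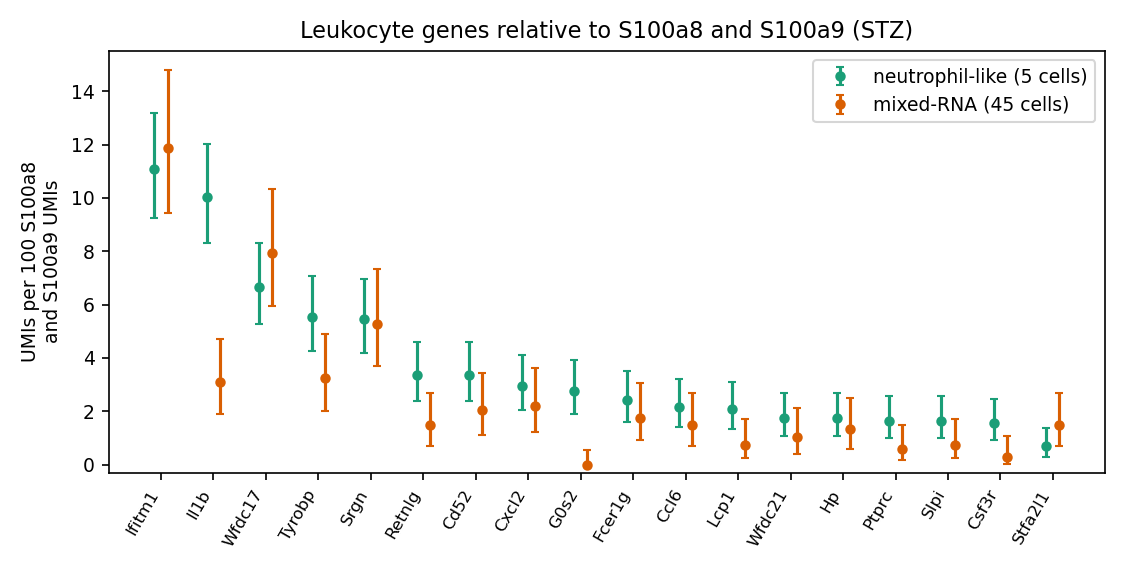
UMIs of leukocyte genes per 100 S100a8 and S100a9 UMIs (y axis) in the 5 neutrophil-like and the 45 mixed-RNA cells of the STZ library; points are ratios of sums and bars are 95% Poisson intervals of the gene's UMIs. Ifitm1, Wfdc17 and Srgn overlap between the groups, and Il1b and G0s2 do not. Of the 32 G0s2 UMIs of the neutrophil-like cells, 22 were in 1 cell.

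Over all 56 selected cells, Wfdc21, Hp and Wfdc17 had the largest folds over all other cells among genes outside the selection genes. Wfdc21, a secreted neutrophil protein, had 27 UMIs in 12 selected cells and 0 in all other cells. The plasma protein haptoglobin, Hp, stored in neutrophil granules, had 29 UMIs against 4, Wfdc17 131 against 19 and Il1b 140 against 47. The stefin gene Stfa2l1 had 18 against 2 and its relative Gm5483 19 against 1, where near-identical copies make the split uncertain. In neutrophil-like cells against the other selected cells the leading genes were G0s2, Tnfaip2, Il1b, Cebpd and Retnlg, with Tnfaip2, a gene induced by tumour necrosis factor, at 32 UMIs against 3 and the transcription factor Cebpd at 22 against 5. These folds follow from how the cells were selected and are descriptions.

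Comparing the selected cells of the libraries sets 3 T cell-like control cells against 53 mostly mixed-RNA STZ cells. Of 1182 genes with enough UMIs, 266 were at least 1.5-fold higher in STZ (22.5%), 21 of them at 0 in control, and 301 were lower (25.5%). The largest ratios were those of S100a9, at least 24.7-fold higher, and S100a8, at least 18.3-fold higher, both with 0 UMIs in control and UMIs in 50 STZ cells. Both are selection genes, and 29 STZ cells were selected by them alone, so these ratios follow from the rule. Next came Pcp2 (15.6-fold), a bipolar cell marker, and Sag (13.3-fold), a rod marker, as measures of other cells' RNA, and then Ckb (13.1-fold) and Aldoa (9.90-fold), genes of energy metabolism, each from 1 UMI in control. No kind had 10 cells in both libraries, so gene levels within a kind were not compared between control and STZ.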

How the data were processed

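The starting point was raw UMI counts as deposited by the authors, for 17087 genes and 19562 cells, with the library read from the ending of each cell name. Per the submitters' processing notes, Cell Ranger 3.0.1, Seurat 3.0 and build mm10 were used; settings are not given in the sources used here. Every gene is in at least 2 cells. Selected cells held 740 to 9980 UMIs. Doublets were kept and no caller was run. The libraries share 21 barcodes, none among the selected cells. The members, marker lists and selection rule were chosen with earlier results of these data known. Kinds needed 2 UMIs from 2 markers outside the selection genes, and a group was named from 3 or more detected markers.

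Counts were summed over cells of a group and scaled to CPM. Intervals are exact Clopper-Pearson for shares, exact Poisson for sums and conditional binomial for ratios, at 95%. A control count of 0 was set to 3, which gives a bound. Genes needed 20 UMIs and 10 CPM over both libraries, and 1.5-fold counted as higher or lower. Named genes are selection genes, markers, the 15 largest folds over all other cells (in 20% of selected cells or more), the 10 of each group (in 30% of its cells, 20 UMIs) and the 8 largest ratios between libraries (30 UMIs, 10 cells). Groups of under 10 cells were also given leading genes, and genes of the 11 named or single cells beyond these rules were chosen after their values were seen. Python 3.11.15, numpy 2.4.6, scipy 1.17.1 and pandas 2.3.3 were used, and the ratio step was tested on simulated data. Alternatives were other UMI, mitochondrial and gate limits, thinning to 500 UMIs, and leaving out shared barcodes or mixed-RNA cells. Some genes that these rules select are not reported here.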

Additional observations from a re-analysis of the deposited data

How the results depend on the processing

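The control share stayed at 3 cells or within its interval under every alternative run. The STZ share of 0.428% became 0.609% with at least 1000 UMIs per cell, 0.186% with selection UMIs from at least 3 genes, 0.202% with cells thinned to 500 UMIs, and 0.0646% both with Ptprc, Coro1a and Cd52 alone and without the mixed-RNA cells. Under both of the last settings the log2 ratio of 3.35 became 0.63, and neutrophil calls went from 12 to 5 and cells of no kind from 37 to 0. These settings shared 10 of their 11 cells, since the 3-gene rule took 1 mixed-RNA cell and lost 1 neutrophil-like cell. With at least 10 pan-leukocyte UMIs per 10000, chosen like the setting without mixed-RNA cells after seeing the data, the share was 0.129%, the log2 ratio 1.63, neutrophil calls 5 and cells of no kind 8. Thinning gave 7 neutrophil calls and 18 cells of no kind, and selection UMIs from 3 genes left 11 of no kind. The 1 STZ T or NK call became 0 under 5 selection UMIs, 3 genes or thinning. Genes higher in STZ numbered 23 after thinning and 80 without the mixed-RNA cells, and genes lower 59 and 64. Thinning moved the log2 ratio of S100a9 from 4.63 to 2.01 and that of S100a8 from 4.19 to 1.52, both lower bounds against 3 counts, and that of Aldoa from 3.31 to 0.44, under 1.5-fold. Thinned values of Sag, Ckb, Mir124-2hg and Pkm could not be given, with control at 0. Dropping cells over 20% mitochondrial UMIs moved no share beyond its interval. No selected cell had a shared barcode or a UMI of the rule's microglial genes, so dropping those could not change which cells were selected. No paired analysis was possible because each group is 1 library and no replicate numbers exist. With 3 control cells, depth limits every comparison between the libraries.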

Other observations

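The 48 cells that met the leukocyte part of the rule but held more than 2 microglial UMIs were left out above. None of them held S100a8, S100a9, Cd8a or Trac. Ccl5 was found in 2 of 16 in the control library and 6 of 32 in the STZ library, at 201.6 and 455.5 CPM. Cd74, the invariant chain of MHC class II, was found in 0 control cells and 7 STZ cells, and Il1b in 0 and 5. Outside the selected cells and these 48, 1 STZ cell with at most 2 microglial UMIs held 10 or more pan-leukocyte UMIs (11 of its 682 UMIs). Among all cells that were not selected, Retnlg was found in 2 and Wfdc17 in 14, all STZ.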
